A study of Mus musculus with 2 samples.

Results

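Cytosolic ribosomal protein genes encode the proteins that, with ribosomal RNA, make up the large and the small subunit of the ribosome outside mitochondria. The family was taken as the gene symbols of Rpl or Rps with a number and an optional letter, the 3 stalk proteins *Rplp0*, *Rplp1* and *Rplp2*, and *Rpsa*, and 83 of 53342 rows of the liver tables met this rule. The mouse annotation calls 80 of the 83 protein coding and the other 3, *Rpl6l*, *Rpl32l* and *Rps4l*, pseudogenes. Of the coding members, 4 are paralogues of another member, *Rpl3l*, *Rpl10l*, *Rpl39l* and *Rps27l*, and the remaining 76 are called core members here, 46 of the large and 30 of the small subunit. A gene was compared between libraries where it reached 1 CPM (reads scaled to the library total), which is 41.8 normalized reads, in at least 1 library, and 79 members and 13400 genes in all did so. The 4 members below this minimum were *Rpl3l* (2.48 normalized reads in control and 2.0 in iFIRKO), *Rpl10l* (listed at 0 in both), *Rpl39l* (listed at 0 in control and 2.01 in iFIRKO) and *Rpl32l* (6.92 and 2.01).

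The liver mRNA came from male mice, injected at 7 weeks of age with tamoxifen at 100 mg/kg on 5 days in a row and examined 3 days after the last dose. iFIRKO mice carry Adipoq-CreERT2 and Insr flox/flox, so that tamoxifen deletes the insulin receptor gene in cells that use the adiponectin promoter, which are adipocytes. The control is labelled WT, and the study describes its controls as floxed mice without Cre, also given tamoxifen. There is 1 liver library per genotype, and how many mice each holds is not stated. Every difference below is therefore between these libraries, with genotype and individual variation not separable, and no test of genotype was possible. Intervals are 95% exact Clopper-Pearson intervals on estimated read pairs and cover counting error only.

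An estimated 42278712 reads in control and 41311107 in iFIRKO lay behind the values. The liver level of *Insr* was 4246 and 3692 normalized reads, and it does not check a deletion made in adipocytes. All 10 hepatocyte markers listed were present in both libraries, led by *Alb*, and their summed level was 5563490 normalized reads in control against 5198500 in iFIRKO. Of the adipocyte markers, *Lep* was listed at 0 in both libraries.

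A growing cell spends much of its transcription on ribosomes, and the subunits need nearly all their proteins in equal number. In mammals the mRNAs of these proteins begin with a short run of pyrimidines (C or T in the DNA), through which the mTORC1 kinase and the RNA-binding protein Larp1 control their translation. Their steady mRNA levels make several of them, *Rplp0* (also called *36b4*) first, common reference genes in PCR of liver.

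Stretches near the annotated starts of several members are shown, among them the genes on which the results turn. Each is part of the RefSeq promoter window, build GRCm38.p6, written 5′ to 3′ on the strand of the gene. Capitals mark the longest run of C or T near the annotated start, which need not begin the mRNA. Relative to that start, the first base of the run lay between -14 (*Rpl7a*) and 41 (*Rps4x*). In *Rps27l* the run, from -12 and 9 bases long, lay wholly before it. The runs of *Rplp0* (7 bases), *Rpl23* (6) and *Rps4x* (7) were shorter than the minimum of 8 used in the count below. *Rpl7a* and *Rpl27a* have the longest runs shown, *Rpl11*, the stalk genes and *Rps6* stand for functional groups, *Rpl36a*, *Rpl23*, *Rps4x* and *Rps27* were among the members with the lowest ratios of iFIRKO to control, *Rpl19* had the core ratio nearest to 1, and *Rps27l* is a paralogue whose level was higher in iFIRKO.
*Rpl7a*, chr2:26910788-26910817, plus strand: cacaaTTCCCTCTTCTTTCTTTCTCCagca
*Rpl27a*, chr7:109519186-109519215, plus strand: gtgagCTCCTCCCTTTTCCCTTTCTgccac
*Rpl11*, chr4:136053358-136053387, minus strand: ccggaagTCTCCCTCTCTCTTCCTgttctc
*Rplp0*, chr5:115559466-115559495, plus strand: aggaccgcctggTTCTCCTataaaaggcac
*Rplp2*, chr7:141447636-141447665, plus strand: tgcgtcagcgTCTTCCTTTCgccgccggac
*Rps6*, chr4:86857349-86857378, minus strand: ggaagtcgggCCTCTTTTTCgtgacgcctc
*Rpl36a*, chrX:134585672-134585701, plus strand: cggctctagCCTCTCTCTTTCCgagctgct
*Rpl23*, chr11:97782404-97782433, minus strand: gagtgggcggggCCTCCCgttcatatccca
*Rps4x*, chrX:102189342-102189371, minus strand: cgcgcagcctccgaccctaaTTTCTTCgtt
*Rps27*, chr3:90213632-90213661, minus strand: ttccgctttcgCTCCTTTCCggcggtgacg
*Rpl19*, chr11:98026944-98026973, plus strand: gcggcccacaagCTCTTTCCTTTCgctgct
*Rps27l*, chr9:66946066-66946095, plus strand: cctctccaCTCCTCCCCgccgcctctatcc

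RefSeq windows were at hand for 56 of the 76 core members, and the other 20 were not examined here. Between 15 bases before and 50 bases after the annotated start, 43 of the 56 held a run of at least 8 C or T on the coding strand, 76.8%, against 26.2% of 26969 other genes. Their longest run had a median of 10 bases, against 6 in other windows, and reached 21 in *Rpl7a*. A C at the annotated start itself followed by 4 more C or T was found in 23.2% of the 56 and in 2.97% of other genes. *Rplp0* is among the 13 members without a run of 8 in the stretch searched, since its longest there has 7. The search depends on the annotated start, and a run at an mRNA start elsewhere would be missed.

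In the whole window of 250 bases before to 50 after the start, the letters CGGAAG, searched on both strands, occurred in 69.6% of the 56 members and 18.7% of other genes. The letters CTCTTTC on the coding strand, which can lie inside a run of C or T, occurred in 23.2% and 4.56%. TATAAA on the coding strand was in 8.93% (5 members) and 9.77%. These are matches of letters and describe the windows only.

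Levels of the core members ran from 783 normalized reads (*Rpl13a*) to 20142 (*Rps2*) in control and from 768 to 19267 in iFIRKO, with medians of 5430 and 4893. Divided by transcript length, the level in control had a median of 8003 normalized reads per kb, and 69 of the 76 core members lay within 2-fold of it. On this scale of level per kb, *Rpl10* (23871 in control and 20716 in iFIRKO), *Rplp1* (22796 and 19125), *Rps2* (20182 and 19306), *Rps18* (14667 and 12544) and *Rpl7a* (13379 and 12319) were the highest, and the same 5 led in both libraries. The genes at the top serve different roles: *Rpl10* joins the large subunit late in its assembly, *Rplp1* binds elongation factors as part of the stalk, and *Rps2* and *Rps18* belong to the small subunit.

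At the low end of the tested members were *Rpl6l* (532 normalized reads per kb in control and 415 in iFIRKO), *Rps4l* (718 and 1004), *Rpl13a* (748 and 734), *Rps20* (1415 and 1092) and *Rpl5* (3589 and 3183). The first 2 of these are annotated as pseudogenes. The values of *Rps20* and *Rpl5* rest on annotated transcripts of 3706 and 2045 nt, long for this family, whose core median is 705 nt. *Rpl13a* stood alone among core members of usual length, and its low value was not examined further.

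**Figure D1:**
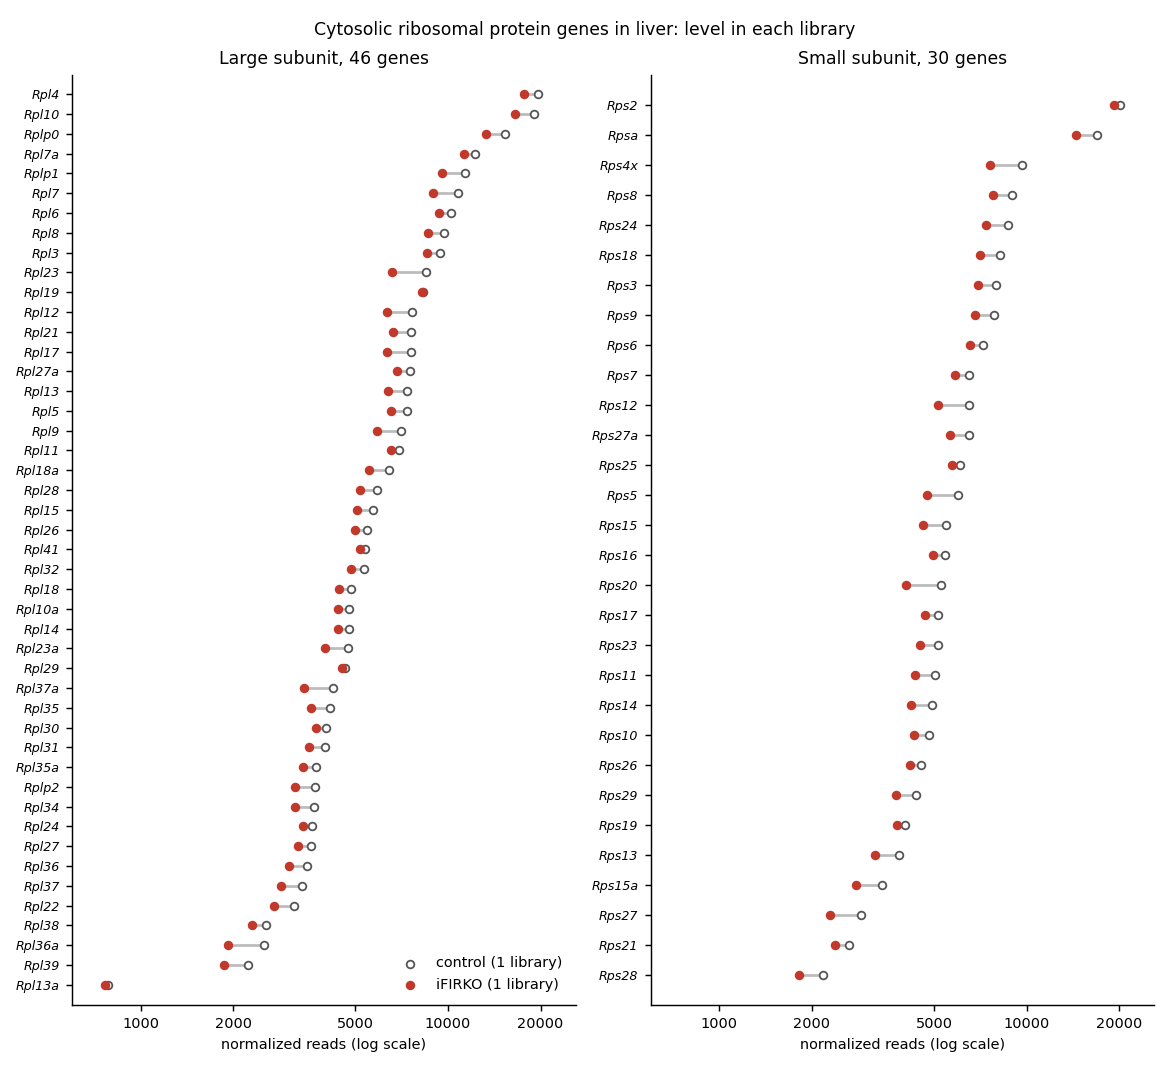
Level of each core member in both liver libraries, in normalized reads on a log axis, with the 46 large-subunit genes on the left and the 30 small-subunit genes on the right, ordered by the control level. Open points are control, filled points iFIRKO, 1 library each, and every filled point lies to the left of its open point, by the least for *Rpl19*.

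The whole core family was slightly lower in the iFIRKO library. All 76 core members had a log2 fold change (iFIRKO over control) below 0, where 48.7% of the 13400 genes tested did. The median was -0.20, that is 12.8% lower, the middle 50% of core members lay between -0.24 and -0.14, and the range was -0.38 to -0.01. The interval lay wholly below 0 for 71 of the 76 core members, against 20% of all genes tested, and for 72 of the 79 members tested with *Rpl6l* added. No member passed the study's 1.5-fold threshold in either direction, where 4.46% of all genes tested were more than 1.5-fold higher and 7.28% more than 1.5-fold lower.

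Summed over the core members, 1.19% of all normalized reads in control and 1.06% in iFIRKO were assigned to them, a log2 ratio of -0.19 (-0.20 to -0.18). In such bulk RNA, fewer cells with these mRNAs and less of them per cell cannot be told apart. Among the 5814 other genes whose higher level of the 2 libraries lay in the range of the core members, the median log2 fold change was 0.03 and 43.8% lay below 0. With transcript length also in their range, the median was 0.04 over 3735 genes. Over the 426 of the 5814 genes with transcripts under 1000 nt it was 0.05. Genes with a level in the range of the family and a transcript under 1000 nt were thus, at their median, slightly higher in iFIRKO. They were not matched to its typical level: their median in control was 1701 normalized reads, against 5430 for the core members.

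The core members were close to one another. Their log2 fold changes had an SD of 0.08, against 0.30 for the other genes of their level range, and 60 of 76 lay within 0.1 of the core median. The counting interval held the core median for 55 members, lay below it for 10 and above it for 11, so part of the differences between members were larger than counting error. Over the 76 genes the log2 fold change had a Spearman rho of 0.01 with control level, 0.05 with transcript length and 0.27 with GC content.

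**Figure D2:**
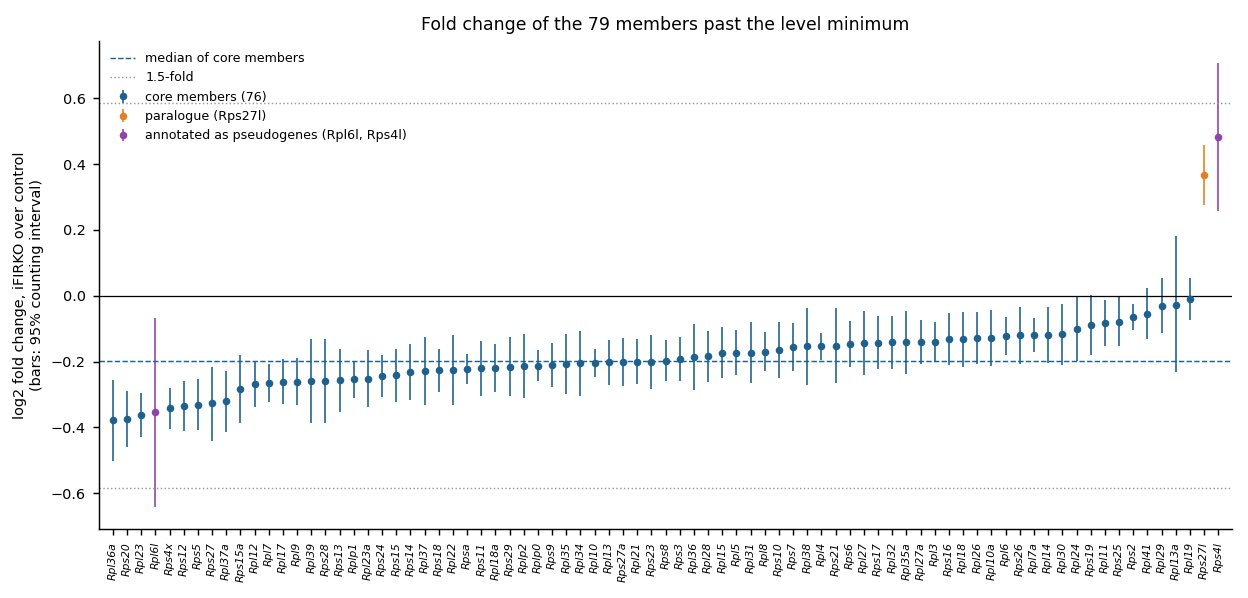
Log2 fold change (iFIRKO over control) of the 79 members tested, in increasing order, with 95% counting intervals. The dashed line is the core median of -0.20, the dotted lines mark 1.5-fold, and only *Rps27l* and *Rps4l* have intervals wholly above 0.

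By subunit, the median log2 fold change was -0.17 over the 46 large-subunit genes and -0.21 over the 30 small-subunit genes, a difference of 0.04. Their summed reads gave -0.18 (-0.19 to -0.17) and -0.20 (-0.21 to -0.19). The intervals of the sums overlapped, and the SD between members of a subunit was 0.08 in both.

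The stalk is the arm of the large subunit that recruits translation factors. *Rplp0*, its base and the reference gene of the study's PCR, had 15367 normalized reads in control against 13262 in iFIRKO, a log2 fold change of -0.21 (-0.26 to -0.17), which is 13.7% lower. The stalk proteins carried on that base were lower by nearly the same ratio: *Rplp1* had 11375 and 9543 normalized reads (-0.25, -0.31 to -0.20) and *Rplp2* 3691 and 3182 (-0.21, -0.31 to -0.12). *Rplp0* thus sat near the middle of the family, with 29 core members below it and 46 above it in log2 fold change. Its level per kb was 1.41 times the core median in both libraries.

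*Rpl5* and *Rpl11* bind the smallest ribosomal RNA as a particle that, when free, holds back Mdm2, the ligase that degrades p53. *Rpl5* had 7339 normalized reads in control against 6510 in iFIRKO, a log2 fold change of -0.17 (-0.24 to -0.10). *Rpl11* had 6903 and 6523, a log2 fold change of -0.08 (-0.15 to -0.01), and its interval lay above the core median. Both partners were lower in iFIRKO, *Rpl11* by less than most of the family.

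*Rps6*, the small-subunit protein phosphorylated by S6 kinase downstream of insulin and mTORC1, had 7214 normalized reads in control against 6517 in iFIRKO (-0.15, -0.21 to -0.08). *Rps27a*, made as a fusion with ubiquitin, had 6474 and 5632 (-0.20, -0.27 to -0.13). *Rpsa*, which is known also as a laminin receptor at the cell surface, had 16876 and 14471 (-0.22, -0.27 to -0.18). The intervals of these 3 genes all held the core median of -0.20.

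The lowest ratios among the 79 members tested were those of *Rpl36a*, *Rps20*, *Rpl23*, the pseudogene *Rpl6l* and *Rps4x*. *Rpl36a*, on the X chromosome, had 2513 normalized reads in control against 1932 in iFIRKO (-0.38, -0.50 to -0.26), and -0.26 when the rows named as its pseudogenes were added to it. *Rps20* had 5243 and 4046 (-0.37, -0.46 to -0.29). *Rpl23*, which like *Rpl11* can bind Mdm2, had 8475 and 6590 (-0.36, -0.43 to -0.30). In percent, *Rpl36a* was 23.1% lower in iFIRKO, *Rps20* 22.8% and *Rpl23* 22.2%, and their intervals lay below the core median. *Rps4x*, the X-linked small-subunit gene, had 9630 and 7598 normalized reads (-0.34, -0.40 to -0.28). *Rpl6l* had 463 and 362 (-0.35, -0.64 to -0.07), a wide interval that also held the core median.

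At the other end, 5 core members had intervals that held 0. *Rpl19* had 8284 normalized reads in control against 8230 in iFIRKO, a log2 fold change of -0.01 (-0.07 to 0.05). *Rpl29* had 4622 and 4528 (-0.03, -0.11 to 0.05), and *Rpl13a*, which joins a complex that silences inflammatory mRNAs when released from the ribosome, had 783 and 768 (-0.03, -0.23 to 0.18). For *Rpl19* and *Rpl29* the interval lay above the core median, whereas that of *Rpl13a* was wide enough to hold both 0 and the core median. The other members with an interval that held 0 were *Rpl41* (-0.05, -0.13 to 0.02) and *Rps19* (-0.09, -0.18 to 0.004).

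Core members with and without a pyrimidine run in the stretch searched around the annotated start were both lower. The median log2 fold change was -0.17 over the 43 with a run of at least 8 and -0.21 over the 13 without one, and this gap was not tested. Many members also carry small nucleolar RNA genes inside their introns, which guide the modification of ribosomal RNA: 29 of 76 core members did (38.2%, 56 such genes in all), against 190 of 12102 other coding genes tested (1.57%). Host and non-host core members had medians of -0.20 and -0.18.

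Of the 4 paralogue members, 1 passed the level minimum. It was *Rps27l*, a paralogue of *Rps27* known as a p53 target, which had 3441 normalized reads in control against 4437 in iFIRKO, 1.29 times as many, and a log2 fold change of 0.37 (0.27 to 0.46). *Rps27* itself had 2884 and 2300, a log2 fold change of -0.33 (-0.44 to -0.22). Thus *Rps27l* was above and *Rps27* below in iFIRKO, with intervals that did not overlap. Only 2 of the 79 members tested had an interval wholly above 0, against 19.9% of all genes tested, and the second was *Rps4l*. Annotated as a transcribed pseudogene, *Rps4l* had 566 and 792 normalized reads, 1.40 times as many in iFIRKO (0.48, 0.26 to 0.71), while *Rps4x* was lower.

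Paralogues known from muscle (*Rpl3l*) and testis (*Rpl10l* and *Rpl39l*) were below the level minimum in both livers, as given at the start. Their widely used counterparts were abundant. *Rpl3* had 9407 normalized reads in control against 8534 in iFIRKO (-0.14, -0.20 to -0.08), *Rpl10* 19073 and 16552 (-0.20, -0.25 to -0.16), and *Rpl39* 2233 and 1866 (-0.26, -0.39 to -0.13).

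Ribosomal protein genes have left many processed copies in the genome, and how reads that fit several copies were assigned is not given in the sources used here. Rows of 944 annotated pseudogenes matched a member's transcript, 77 members had at least 1, and *Rpl21* had the most with 74. In control 401 of these rows were above 0, and in iFIRKO 395. They held 6.75% of the reads of members and pseudogenes together in both libraries. Their summed level had a log2 ratio of -0.18 (-0.21 to -0.15), against -0.19 for the core members. Of the 135 pseudogene rows past the level minimum, 114 lay below 0, where 48.7% of all genes tested did. Their interval lay wholly below 0 for 15, a smaller share than the 20% of all genes tested, and held 0 for 120. More than 1.5-fold lower were 7 and more than 1.5-fold higher 0, against 7.28% and 4.46% of all genes tested. The median of the 135 was -0.18. The rows of members and of their copies thus differed between libraries by nearly the same ratio. Because the copies were matched by sequence, reads of member mRNAs may be among theirs, so the ratios are not independent observations. How many such reads there were was not tested.

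For 5 members the matched pseudogenes held over 20% of the joint reads in control: *Rps6* (31.5%), *Rpl15* (27.0%), *Rpl27* (26.9%), *Rpl23a* (25.7%) and *Rpl5* (21.2%). Levels of these members are uncertain to that degree. By the same match *Rpl36a* had 8.43%, but adding the rows named as its pseudogenes shifted its log2 fold change, as given above. The match may therefore not credit *Rpl36a* with all its copies, and its level is uncertain as well. The rows matched to *Rps6* had 3317 normalized reads in control against 2836 in iFIRKO, a log2 fold change of -0.23, beside -0.15 for *Rps6*.

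Some ribosome components are left out by the symbol rule. *Rps3a1* (9195 normalized reads in control against 7489 in iFIRKO; -0.30, -0.36 to -0.23) and *Rack1*, the scaffold on the small subunit (10138 and 9204; -0.14, -0.20 to -0.08), were lower like the family. *Fau*, which encodes a fusion protein, had 5111 and 4993 (-0.03, -0.11 to 0.05). The 3 paralogues in this list were unlike each other. *Rpl22l1* had 1115 and 783 normalized reads, a log2 fold change of -0.51 (-0.70 to -0.32), lower than that of any core member, whereas *Rpl36al* (0.11, 0.02 to 0.20) and *Rpl7l1* (0.12, 0.01 to 0.24) were slightly higher.

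Mitochondrial ribosomal proteins, which build the separate ribosome of that organelle, did not share the family's direction. All 78 of these genes were tested, 54 lay above 0 and 24 below, and the median log2 fold change was 0.10. Their interval lay wholly above 0 for 24 and wholly below for 4, and none passed 1.5-fold. Over all genes tested, 19.9% had an interval wholly above 0 and 20% wholly below. Of the same genes 48.7% lay below 0, 4.46% were more than 1.5-fold higher and 7.28% more than 1.5-fold lower. These are the shares to set beside such counts here and in the lists that follow. The most abundant in control were *Mrpl12* (3047 normalized reads in control against 3376 in iFIRKO; 0.15, 0.05 to 0.25) and *Mrpl15* (2482 and 2597; 0.07, -0.05 to 0.18). Their summed reads had a log2 ratio of 0.09 (0.07 to 0.11), against -0.19 for the cytosolic core.

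Ribosome biogenesis factors, which process ribosomal RNA and assemble the subunits, lay mostly on the other side of 0 from the ribosomal proteins. Of 88 tested, 69 were above 0, 38 had an interval wholly above 0 and 2 wholly below, and the median was 0.15. *Nhp2*, a core protein of the RNA-guided pseudouridylation complex, had 561 normalized reads in control against 834 in iFIRKO (0.57, 0.35 to 0.80), and *Nolc1*, a nucleolar phosphoprotein, 906 and 1322 (0.54, 0.37 to 0.72). The 2 lower ones were *Riok1* (413 and 307; -0.42, -0.75 to -0.13) and *Bms1* (1301 and 1126; -0.21, -0.38 to -0.04). The most abundant, *Ncl* (nucleolin), had 6154 and 6587 (0.10, 0.03 to 0.17), and *Riok3* had 2980 and 3070 (0.04, -0.06 to 0.15). None passed 1.5-fold.

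RNA polymerase I, which makes the ribosomal RNA precursor, and its factors had a median log2 fold change of 0.05 over 20 genes tested. Of these, 3 had an interval wholly above 0 and 1, *Ubtf* (2426 and 2226 normalized reads; -0.12, -0.24 to -0.01), wholly below. Both counts were under the shares over all genes tested (19.9% above and 20% below). *Cd3eap*, which encodes a protein of the polymerase complex, passed 1.5-fold with 176 normalized reads in control against 268 in iFIRKO (0.59, 0.20 to 1.0). That is 1 of the 20 genes, near the 4.46% of all genes tested that were more than 1.5-fold higher. *Polr1d*, next in abundance to *Ubtf*, had 1394 and 1317 (-0.08, -0.24 to 0.07).

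Initiation factors also lay mostly above 0, with a median of 0.09 over 29 genes, 16 intervals wholly above 0 and 1 below. The scaffold proteins *Eif4g1* (19427 normalized reads in control against 21960 in iFIRKO; 0.18, 0.14 to 0.22) and *Eif4g2* (18952 and 20136; 0.09, 0.05 to 0.13) were the most abundant. *Eif6*, which keeps the large subunit from joining the small, was at 1583 and 2107 (0.41, 0.28 to 0.55). Of the 29, 6 lay below 0, and only the helicase gene *Eif4a2* had an interval wholly below 0, with 9900 and 8313 (-0.25, -0.31 to -0.19). *Eif4b* and other initiation factors with a known pyrimidine start were counted in a separate list below, where some were lower and some higher.

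**Figure D3:**
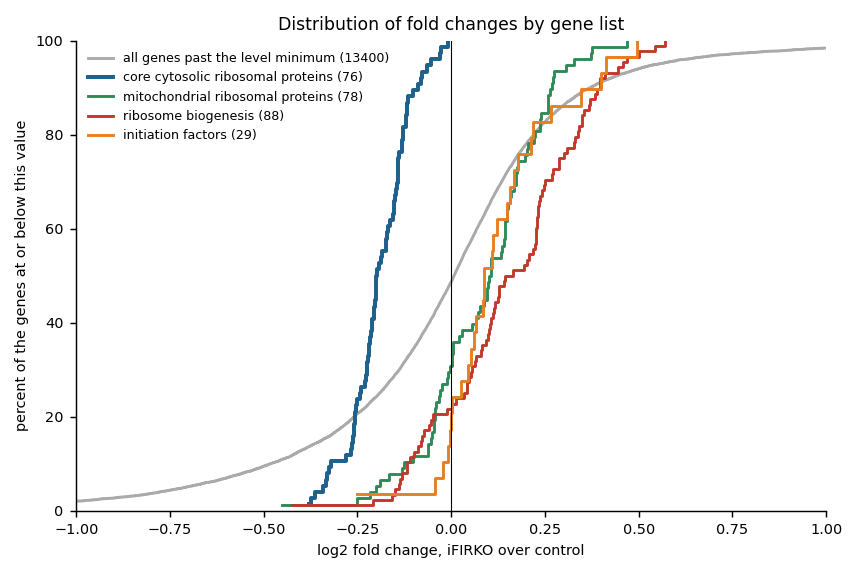
Cumulative percent of genes at or below each log2 fold change (iFIRKO over control), for the 76 core members, all 13400 genes tested and 3 translation-related lists. The curve of the core members rises steeply and reaches 100% left of 0, whereas those of the mitochondrial ribosomal proteins (78), biogenesis factors (88) and initiation factors (29) cross 50% to the right of 0, at medians of 0.10, 0.15 and 0.09.

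Genes known to share the pyrimidine start without being ribosomal proteins were mixed. Over 26 genes the median log2 fold change was -0.10, with 11 intervals wholly below 0 and 3 wholly above. The elongation factor *Eef1a1*, the most abundant of them, had 126362 normalized reads in control against 104598 in iFIRKO (-0.27, -0.29 to -0.26), and *Eef2* had 46789 and 44237 (-0.08, -0.11 to -0.05). *Eef1b2* (-0.29), *Eif4b* (-0.28), *Npm1* (-0.32) and *Tpt1* (-0.20) also had intervals wholly below 0. Those above 0 were *Eif3l* (0.25, 0.14 to 0.35), *Eif2s3x* (0.18, 0.06 to 0.29) and *Pabpc1*, the poly(A)-binding protein (0.09, 0.03 to 0.15). The 6 host genes of small nucleolar RNAs in the list all had intervals that held 0.

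Genes of mTORC1 and S6 kinase signalling had a median of -0.07 over 23 tested. Their intervals lay below 0 for 9 and above for 4, against 20% and 19.9% of all genes tested. Those more than 1.5-fold lower were 3, against 7.28% of all genes tested. *Pdcd4*, an inhibitor of the initiation helicase that S6 kinase marks for degradation, had 6004 normalized reads in control against 3458 in iFIRKO (-0.80, -0.88 to -0.71). *Maf1*, a repressor of RNA polymerase III, had 856 and 532 (-0.68, -0.91 to -0.46), and *Myc* had 491 and 321 (-0.61, -0.91 to -0.32). Of the core subunits of the kinase complex, *Mtor* and *Mlst8* were higher: *Mtor* had 2053 and 2509 (0.29, 0.17 to 0.41) and *Mlst8* 352 and 527 (0.58, 0.30 to 0.87), just inside 1.5-fold. *Rptor*, the third core subunit, had 1701 and 1842 with an interval that held 0 (0.11, -0.02 to 0.25). *Eif4ebp2*, a repressor of cap-dependent initiation (-0.23, -0.29 to -0.17), and *Larp1* (7451 and 7144; -0.06, -0.13 to 0.01) were the most abundant of the list.

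Markers of several other cell types differed between the libraries by more than the ribosomal proteins did. For the counts given here, 48.7% of all genes tested lay below 0. More than 1.5-fold lower were 7.28%, and more than 1.5-fold higher 4.46%. All 7 leukocyte markers tested were lower in iFIRKO, 6 by more than 1.5-fold, with a summed level over all 10 listed of 17214 normalized reads in control against 11190 in iFIRKO. All 5 endothelial markers were lower, with sums of 8652 and 6293. Of the 7 erythroid markers tested, 6 were more than 1.5-fold higher and *Klf1* was lower, with sums over all 8 listed of 13578 and 27066. Stellate markers summed to 6977 and 7582 (4 genes) and cholangiocyte markers to 519 and 420 (4 genes). The interval held 0 for 2 of the stellate markers and for all 4 cholangiocyte markers. Hepatocyte markers had a median log2 fold change of -0.13 over 10 genes, with a range from -0.94 (*Apoa1*) to 0.29 (*Ttr*). Of the 4 adipocyte markers, *Cidec*, which liver cells also express, had 17.9 and 108 normalized reads, and *Plin1* and *Adipoq* were listed at 0 in control and 2.01 in iFIRKO. The part of these cell populations in the lower ribosomal protein mRNAs was not tested.

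The study measured mRNA in liver and in cultured hepatocytes by PCR relative to *Rplp0*, so the libraries were also read on that scale, dividing each gene by *Rplp0* of its own library. Because *Rplp0* was 13.7% lower in iFIRKO, every log2 fold change became 0.21 larger. *Ccna2*, a cyclin of S phase and G2, had 318 normalized reads in control against 610 in iFIRKO, a log2 fold change of 0.93 (0.66 to 1.23) by library scaling and 1.15 relative to *Rplp0*. *Ccnb1*, the mitotic cyclin, had 129 and 555 (2.07, and 2.28 relative to *Rplp0*). *Cdk1*, its kinase, had 340 and 706 (1.05 and 1.26). *Mki67*, the gene of the proliferation marker Ki-67, had 739 and 1221 (0.72 and 0.93). These cell cycle genes had intervals wholly above 0 on both scales.

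*Cdk2*, the kinase of S phase entry, was where the reference mattered to the reading of the interval. It had 511 normalized reads in control against 538 in iFIRKO, with a log2 fold change of 0.07 (-0.18 to 0.33) by library scaling. Relative to *Rplp0* this became 0.29 (0.03 to 0.54), an interval wholly above 0 that leaves out the counting error of *Rplp0*. *Txnip*, an inhibitor of thioredoxin, had 7320 and 4051 normalized reads, a log2 fold change of -0.85 (-0.93 to -0.78) by library scaling and -0.64 (-0.72 to -0.56) relative to *Rplp0*. The study reported *Txnip* mRNA in cultured hepatocytes, and TXNIP in liver as protein. On the scale of *Rplp0* the median of the 79 members tested was 0.02, since *Rplp0* (-0.21) lay near the family median (-0.20).

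**Figure D4:**
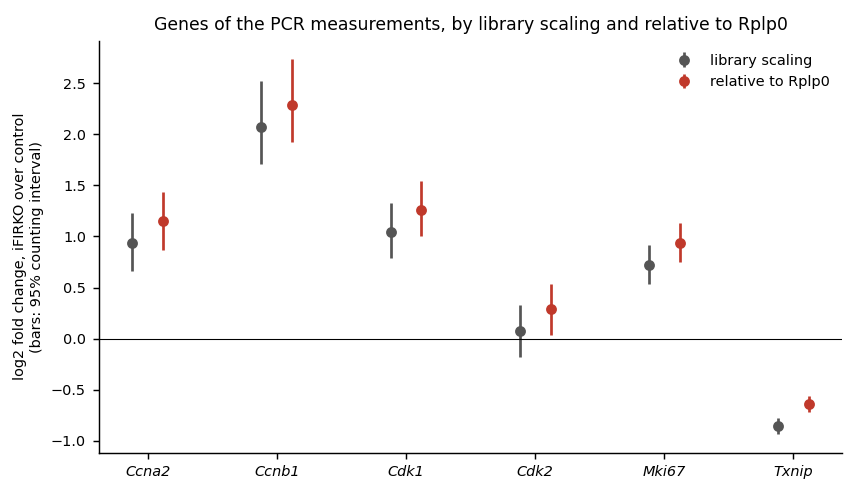
Log2 fold change (iFIRKO over control) of 6 genes that were PCR targets in liver or in cultured hepatocytes, by library scaling (grey) and relative to *Rplp0* (red), with 95% counting intervals. Each red point lies 0.21 above its grey point, and only the interval of *Cdk2* holds 0 on one scale and not on the other.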

How the data were processed

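Liver mRNA libraries (TruSeq stranded mRNA kit, NovaSeq platform) from 1 control and 1 iFIRKO sample were read from tables the authors deposited as log2 normalized read counts per gene symbol, with build mm10 in the submitters' processing notes. The aligner, counter, annotation, scaling method and use of strand are not given in the sources used here. Values were returned to the linear scale, and 0 was kept as 0. Low values stepped by about 2 reads, so read pairs for the intervals were estimated as the values divided by 2 and by a factor per library. Of values under 50 reads, 48.2% in control and 51.1% in iFIRKO came within 0.02 of a whole read. PCR duplicates were not known, so intervals cover counting error only.

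Fold changes used a pseudocount of 0.1 CPM (4.18 normalized reads), a minimum of 1 CPM in either library and the 1.5-fold threshold of the study. Gene models, lengths (shortest principal transcript) and coordinates were from GENCODE M21 on GRCm38, and start windows from RefSeq. Pseudogenes were matched to members with BLAST 2.17.0 (at least 90% identity over 80% of the pseudogene). Scripts ran in Python 3.11.15 with scipy 1.17.1, pandas 2.3.3, numpy 2.4.6 and matplotlib 3.10.9, and the calculations were tested on simulated data. Alternatives changed the level minimum, pseudocount, library scaling (median ratio, TMM, total without the 20 most abundant genes, equal totals), fold threshold, repeated symbols and pseudogene rows.

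The members and gene lists were chosen with earlier results of these data known. Members were named by role (stalk, Mdm2-binding, S6 kinase substrate, fusion and paralogue genes), by the 5 largest and 5 smallest log2 fold changes and by the 5 highest and 5 lowest levels per kb. In each list, genes past 1.5-fold and the 2 highest levels were named. Other genes named, such as *Rpl41*, *Rps19*, *Nhp2*, *Nolc1*, *Riok1*, *Bms1*, *Eif6*, *Eif4a2*, *Mtor* and *Mlst8*, were chosen after their values were seen. One listed ribosome component is not reported here.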

Additional observations from a re-analysis of the deposited data

How the results depend on the processing

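No paired analysis was possible because each genotype has 1 library, and leaving out a library was not possible for the same reason. Apart from the scale of *Rplp0*, the median of the members tested stayed between -0.20 and -0.18, and 75 or 76 core members lay below 0. The settings changed the level minimum, pseudocount, scaling, repeated symbols and pseudogene rows. The level minimum and pseudocount used could not change the count of core members below 0. A change of fold threshold could alter neither that count nor the median. Relative to *Rplp0* the median was 0.015, since the change of *Rplp0* lay near that of the family, with *Mki67* at 0.93 and *Txnip* at -0.64. Without a level minimum, 1 member, *Rpl32l*, was more than 1.5-fold lower. With libraries scaled to equal totals, an alternative added after the data were seen, the log2 ratio of all members' summed reads was -0.17 instead of -0.18 and *Rpl19* was at 0.0051. Of 356 recomputed values of single genes, 354 stayed inside their counting interval with the same sign. *Rpl19*, above, changed sign inside its interval, and *Rpl36a* lay outside its interval, at -0.26 with its named pseudogene rows added. With no replicates, variation between mice is unknown, and reads shared with pseudogenes limit the levels of single members.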
